A study of Mus musculus with 20 samples.

Results

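Ribosome biogenesis genes encode the proteins that build ribosomes in the nucleolus and are not kept in the finished particle. The 50 genes described here were named by mm10 symbol, with no measured value in the rule, and all 50 were found among 21631 protein-coding genes on chromosomes 1 to 19 and X. The list was nevertheless chosen with earlier results of these data known. They fall into 6 classes by role: 3 core proteins of box C/D small nucleolar ribonucleoproteins (snoRNPs), 4 core proteins of H/ACA snoRNPs, 18 factors of the small subunit processome and of small subunit maturation, 16 factors of the large subunit processome and of large subunit maturation, 4 factors of RNA polymerase I transcription and 5 other nucleolar proteins. A peak was counted at a gene if at least 1 bp of it lay within 1 kb of either annotated end of the gene.

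The peaks came from 12 libraries made from sorted hematopoietic stem cells (HSC) of adult mice that had all received poly(I:C). Controls (WT) carried the genotype Mx1-Cre-/-;mTORflox/flox, knockouts (KO) carried Mx1-Cre+/-;mTORflox/flox, and a further group (KO MycHet) carried Mx1-Cre+/-;mTORflox/flox;c-Myc+/flox. Poly(I:C) induces interferon, and the Mx1 promoter that drives Cre answers to interferon in many cell types, so Cre can act in cells other than HSC. Controls shared the floxed alleles and the poly(I:C) with the other groups but lacked Cre. Chromatin immunoprecipitation (ChIP-seq) of the transcription factor MYC and of the histone marks H3K27ac and H3K4me3 gave 1 WT and 1 KO list each, and ATAC-seq, which maps open chromatin, gave 2 lists per genotype from 50000 cells per library. The sources used here do not give the mouse strain, the time after poly(I:C) or any pooling of animals, and nothing in the labels says that libraries of 1 genotype came from separate mice.

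In the nucleolus, RNA polymerase I transcribes the ribosomal RNA precursor, which is folded, cleaved and chemically modified while ribosomal proteins bind it. Box C/D snoRNPs guide methylation of the RNA, H/ACA snoRNPs guide its conversion of uridine to pseudouridine, and the processomes cut the precursor and shape the small and large subunits. MYC is a known activator of ribosome production that binds the hexamer CACGTG, the canonical E-box, as a partner of MAX, and mTOR signalling is known to support the same process through translation and RNA polymerase I.

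The sequences that carry the MYC results are shown first. They come from the RefSeq promoter table of GRCm38.p6, the assembly also called mm10, which covers 250 bases before to 50 bases after each annotated start and had an entry for 44 of the 50 genes. The E-box was searched as CACGTG, which reads the same on both strands and overlaps no other motif searched. Each sequence is written 5′ to 3′ on the strand of its gene, with the E-box in capitals. In 7 genes the E-box began at or downstream of the start. Their 30-base windows lie at chr8:106893643-106893672 (Utp4), chr17:71616220-71616249 (Wdr43), chr11:74898092-74898121 (Tsr1), chr11:3963965-3963994 (Pes1) and chr11:72441347-72441376 (Mybbp1a) on the plus strand, and at chr10:13193092-13193121 (Ltv1) and chr10:88826765-88826794 (Utp20) on the minus strand.
Utp4: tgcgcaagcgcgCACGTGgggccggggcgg
Wdr43: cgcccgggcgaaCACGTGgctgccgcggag
Tsr1: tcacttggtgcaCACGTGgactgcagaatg
Ltv1: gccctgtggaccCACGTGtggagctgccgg
Utp20: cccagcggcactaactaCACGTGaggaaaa
Pes1: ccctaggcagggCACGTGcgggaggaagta
Mybbp1a: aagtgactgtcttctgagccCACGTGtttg
Upstream of the start, 3 genes held the motif. The windows of Imp4 (chr1:34439696-34439725) and Nop2 (chr6:125131811-125131840) are on the plus strand and hold 1 E-box each.
Imp4: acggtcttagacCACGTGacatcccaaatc
Nop2: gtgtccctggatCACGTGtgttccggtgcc
Rrn3 was the only gene of the 44 with 2 E-boxes, so the 250 bases before its start are shown whole (chr16:13780449-13780698, plus strand).
Rrn3: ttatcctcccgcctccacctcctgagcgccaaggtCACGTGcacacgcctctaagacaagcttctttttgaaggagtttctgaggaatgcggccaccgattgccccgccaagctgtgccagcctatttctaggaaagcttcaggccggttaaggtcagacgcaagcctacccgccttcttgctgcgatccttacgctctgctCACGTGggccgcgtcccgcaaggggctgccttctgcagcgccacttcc
Nat10 had the highest KO MYC score of the 50 genes, and the 250 bases before its start (chr2:103761271-103761520, minus strand) hold no E-box.
Nat10: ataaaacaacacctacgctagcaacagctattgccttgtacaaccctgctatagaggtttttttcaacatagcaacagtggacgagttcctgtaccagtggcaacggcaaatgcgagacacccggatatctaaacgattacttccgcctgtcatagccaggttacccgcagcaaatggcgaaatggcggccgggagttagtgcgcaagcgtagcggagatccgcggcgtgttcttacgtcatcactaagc

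The libraries differed in the length of their lists, which bears on every count below. MYC lists held 8774 peaks in WT and 22086 in KO, H3K27ac lists 10078 and 20036, and H3K4me3 lists 15089 and 16019. For ATAC-seq the lists had 17303 (WT 1), 66531 (WT 2), 19174 (KO 1), 72149 (KO 2), 47214 (KO MycHet 1) and 53722 (KO MycHet 2) peaks. Peak lists carry no read counts, so the depth is unknown, and more bound or marked sites in KO cannot be told apart from a difference in depth between the libraries. Each score is the value the authors deposited for a peak. It has no stated scale, so it was used within a list and not to compare libraries. Mtor, the targeted gene, had a MYC peak in WT (score 221.16) and none in KO. Its ATAC-seq peaks scored 341.21 and 1418.45 in WT at the start, whereas KO 1 had none at either end and KO 2 (183.02), KO MycHet 1 (167.75) and KO MycHet 2 (258.78) had one only at the far end, which Mtor shares with Exosc10. Myc, which carries 1 floxed allele in KO MycHet, had no MYC peak in either genotype and an ATAC-seq peak in all 6 libraries. Among 14 HSC marker genes, 10 had H3K4me3 in both genotypes, and Meis1, Tal1 and Gata2 had none in either. Among 8 markers of each other type, the number with H3K4me3 in both genotypes was 3 erythroid, 3 myeloid, 2 B cell, 1 T and NK cell, 2 megakaryocyte and 5 stromal or endothelial. H3K27ac lay at 1 HSC marker in WT and 7 in KO, at 0 and 4 B cell markers, 0 and 1 erythroid, 1 and 1 myeloid, 1 and 2 T and NK cell, 0 and 2 megakaryocyte, and 0 and 2 stromal or endothelial markers. The part of cell type make-up in the results was not tested.

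MYC lay at most ribosome biogenesis genes in the KO library and at a minority in WT. A MYC peak was found at 10 of 50 genes in WT (20.0%, exact 95% interval 10.0 to 33.7) and at 35 of 50 in KO (70.0%, 55.4 to 82.1). Over all protein-coding genes the shares were 10.3% in WT and 22.3% in KO. The 2 genotypes shared 7 genes (7.93% of all genes), 28 had MYC in KO only (14.4%), 3 in WT only (2.35%) and 12 in neither (75.3%). Read against the background, the WT count was about in proportion to that of other active genes, while the KO count was above it: among the 11109 genes with H3K4me3 in both genotypes, 18.2% had MYC in WT, 39.3% in KO, 24.8% in KO only, 3.71% in WT only and 57.0% in neither. With 1 library per genotype no test of the genotype difference was possible, and intervals cover counting error only.

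The difference between the genotypes was smaller, and did not vanish, when the KO list was shortened to the length of the WT list. Among the 8774 highest-scoring KO peaks, all of which scored at least 82.92, MYC lay at 20 of 50 genes (interval 26.4% to 54.8%), against 11.4% of all genes and 20.4% of genes with H3K4me3 in both genotypes. Of these, 14 genes were KO only (5.67% of all genes, 9.96% of those with H3K4me3) and 6 were shared with WT (5.7% of all genes). WT-only genes then numbered 4 (4.59% and 7.71%), since Wdr12 lost its KO peak. Thus 14 of the 28 KO-only genes kept that call, and the scores of the 28 peaks ran from 54.12 to 200.13 with a median of 84.6. The interval of the shortened KO count overlapped that of the WT count. A wider list of ribosome biogenesis genes and both ribosomal protein lists then had no more genes with MYC in KO than in WT. The share plot sets the values of the members beside the other gene lists.

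**Figure D1:**
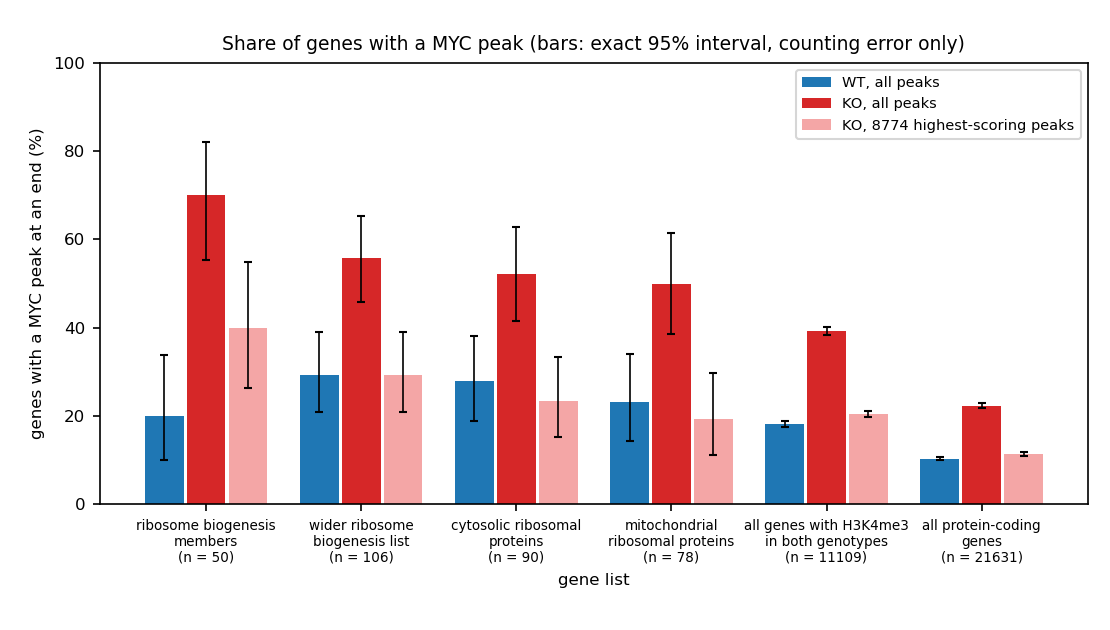
Share of genes with a MYC peak at an annotated end (y axis, percent) in WT, in KO and in KO with the 8774 highest-scoring peaks, for 6 gene lists (x axis); bars are shares and lines exact 95% intervals for counting error only. The ribosome biogenesis members had the highest KO share of the 6 lists, 35 of 50 with all peaks and 20 of 50 with equal numbers, and their WT share of 20.0% was close to the 18.2% of genes with H3K4me3 in both genotypes. That WT share was below those of the wider list and of both ribosomal protein lists.

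Most of these MYC peaks sat on the promoter, and their scores spanned a wide range of each list. The 10 WT peaks scored 57.99 to 167.9 (median 95.5) and lay at a median percentile of 74.7 of the WT list, and the 35 KO peaks scored 54.12 to 200.13 (median 94.9) at a median percentile of 69.3 of the KO list. Strand was known for 32 of the 35 genes with a KO peak, and the peak lay at the start only in 29, at the far end only in 1 (Pes1) and at both ends in 2. The centre of the KO peak was a median of 114 bp from the nearest annotated start, and 27 of 32 lay within 500 bp. All 35 KO peaks overlapped a KO H3K27ac peak, 33 a KO H3K4me3 peak, and 29 and 34 an ATAC-seq peak of KO 1 and KO 2. The 10 WT peaks overlapped H3K4me3 in 10 cases and ATAC-seq peaks of WT 1 and WT 2 in 9 and 10, but a WT H3K27ac peak in none. H3K27ac peaks had a median width of 333 bp and covered 4.71 Mb in WT, against 1237 bp and 31.4 Mb in KO. Overlaps were counted at the members only, so they have no background, and their difference between the genotypes was not tested. A second gene shared 12 of the KO peaks and 6 of the WT peaks, so these cannot be assigned to the ribosome biogenesis gene alone.

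**Figure D2:**
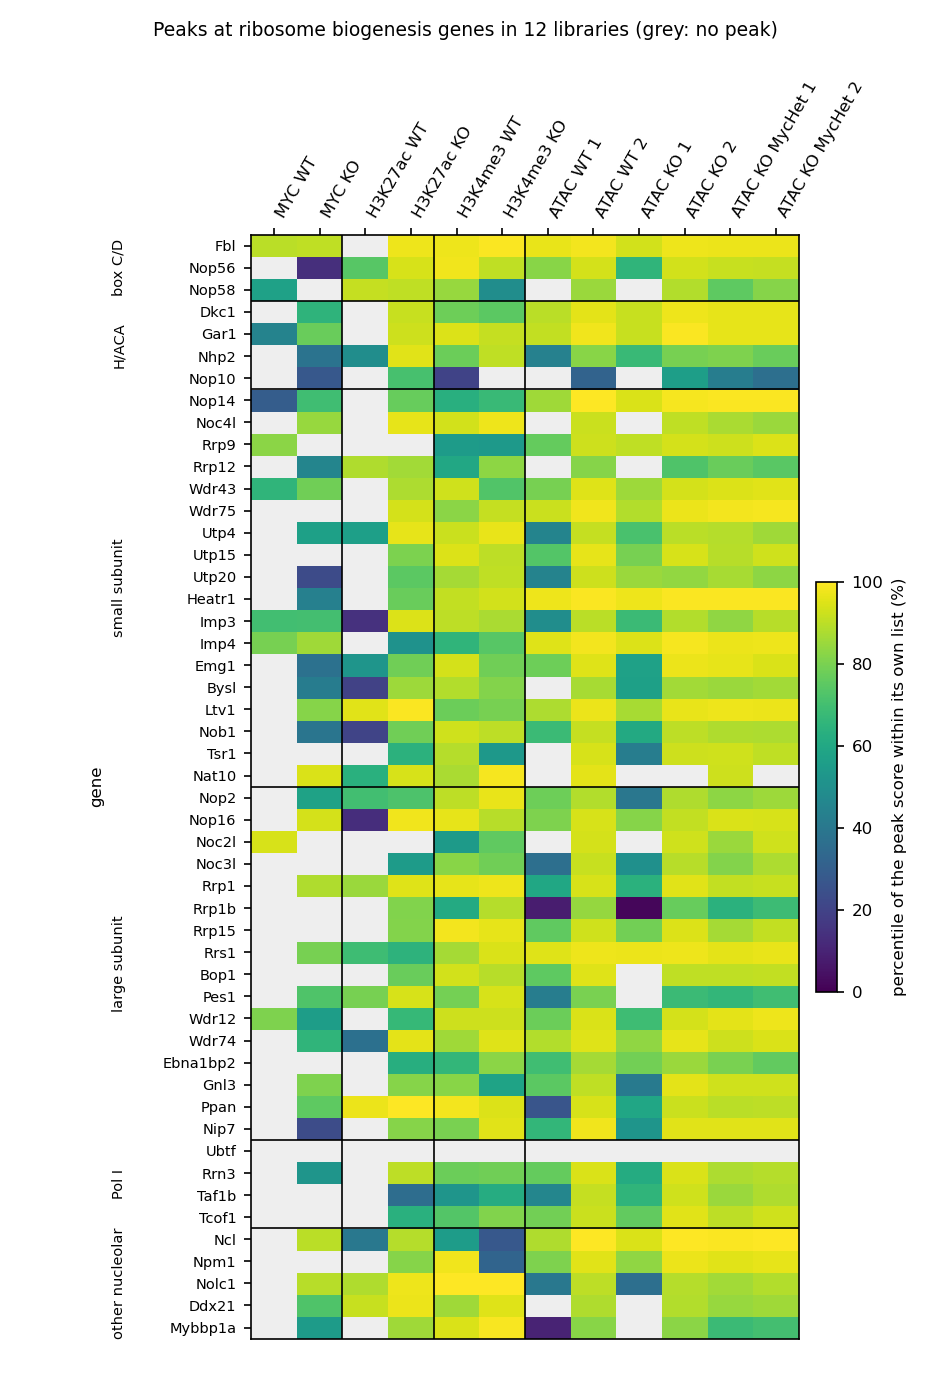
Highest peak at each of the 50 genes (rows, by class) in the 12 libraries (columns); colour is the percentile of the peak's score within its own list (percent) and grey means no peak at either gene end. The MYC WT and H3K27ac WT columns are mostly grey with 10 and 21 peaks, the MYC KO and H3K27ac KO columns hold 35 and 47, and the H3K4me3 columns hold 49 and 48.

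The box C/D core proteins each showed a different MYC pattern. Fbl encodes fibrillarin, the methyltransferase of the complex (gene ID 14113, chr7:28168893-28179269). Its MYC peaks scored 135.74 in WT and 158.02 in KO, H3K27ac was absent in WT and scored 469.52 in KO, and H3K4me3 scored 716.73 and 884.93. Open chromatin at Fbl scored, in the order WT 1, WT 2, KO 1, KO 2, KO MycHet 1 and KO MycHet 2, 334.77, 1322.65, 248.94, 1090.7, 859.23 and 905.5. ATAC-seq scores of the other genes are given in the same order. Every library but H3K27ac WT therefore had a peak there, and the nearest WT H3K27ac peak (69.01) lay 1017 bp inside the gene, just outside the window. Nop56 and Nop58 encode the paired scaffold proteins that hold the box C/D RNA. Nop56 (ID 67134, chr2:130274367-130279313) had MYC in KO only with a score of 54.12, the lowest of all members, while H3K27ac scored 84.87 and 379.3 and H3K4me3 731.53 and 599.07 in WT and KO. Nop58 (ID 55989, chr1:59684961-59711510) had MYC in WT only (73.56), with H3K27ac of 130.98 and 320.36 and H3K4me3 of 525.44 and 276.21. The scaffold partners were thus opposite in MYC and alike in having both histone marks in both genotypes. ATAC-seq at Nop56 scored 189.05, 888.5, 112.76, 764.21, 587.3 and 620.76. At Nop58 it was absent in WT 1 and KO 1 and scored 534.02 (WT 2), 581.3 (KO 2), 284.46 and 380.55 (KO MycHet). With equal numbers of peaks Nop56 lost its KO call and 1 of 3 box C/D genes, Fbl, kept MYC in KO.

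All 4 H/ACA core genes had MYC in KO (22.3% of all genes), and 1 of them, Gar1, had it in WT (10.3%). Dkc1 encodes dyskerin, the pseudouridine synthase (ID 245474, chrX:75095854-75109776). MYC at Dkc1 was absent in WT and scored 88.94 in KO, H3K27ac was absent in WT and scored 337.23 in KO, and H3K4me3 scored 475.37 and 461.8. Gar1 (ID 68147, chr3:129824912-129831407) had MYC of 65.08 and 108.87, H3K27ac in KO only (348.44) and H3K4me3 of 646.48 and 610.42. Gar1 protein contacts dyskerin and helps the substrate RNA load and leave. Nhp2 (ID 52530, chr11:51619773-51623718) had MYC in KO only (65.03), H3K27ac of 65.79 and 412.14, and H3K4me3 of 472.0 and 599.72. Nop10 (ID 66181, chr2:112261926-112262898) had MYC in KO only (59.55), H3K27ac in KO only (174.89) and H3K4me3 in WT only (110.3). Nhp2 binds the guide RNA and Nop10 links it to dyskerin, and with equal numbers of peaks both lost the KO call, leaving Dkc1 and Gar1.

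Open chromatin at the H/ACA genes did not follow the MYC pattern. Dkc1 had ATAC-seq scores of 237.36, 1040.17, 230.5, 1087.81, 801.16 and 856.8. For Gar1 the scores were 248.38, 1227.65, 229.68, 1453.41, 793.28 and 862.85. Nhp2 had 85.45, 467.84, 117.77, 367.43, 350.95 and 314.55. All 3 were therefore open in every library. Nop10 was listed as open in the 4 longer lists only, with 93.77 in WT 2, 160.97 in KO 2, and 107.07 and 93.83 in KO MycHet. Nop10 was also the member with the weakest H3K4me3 score in WT.

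**Figure D3:**
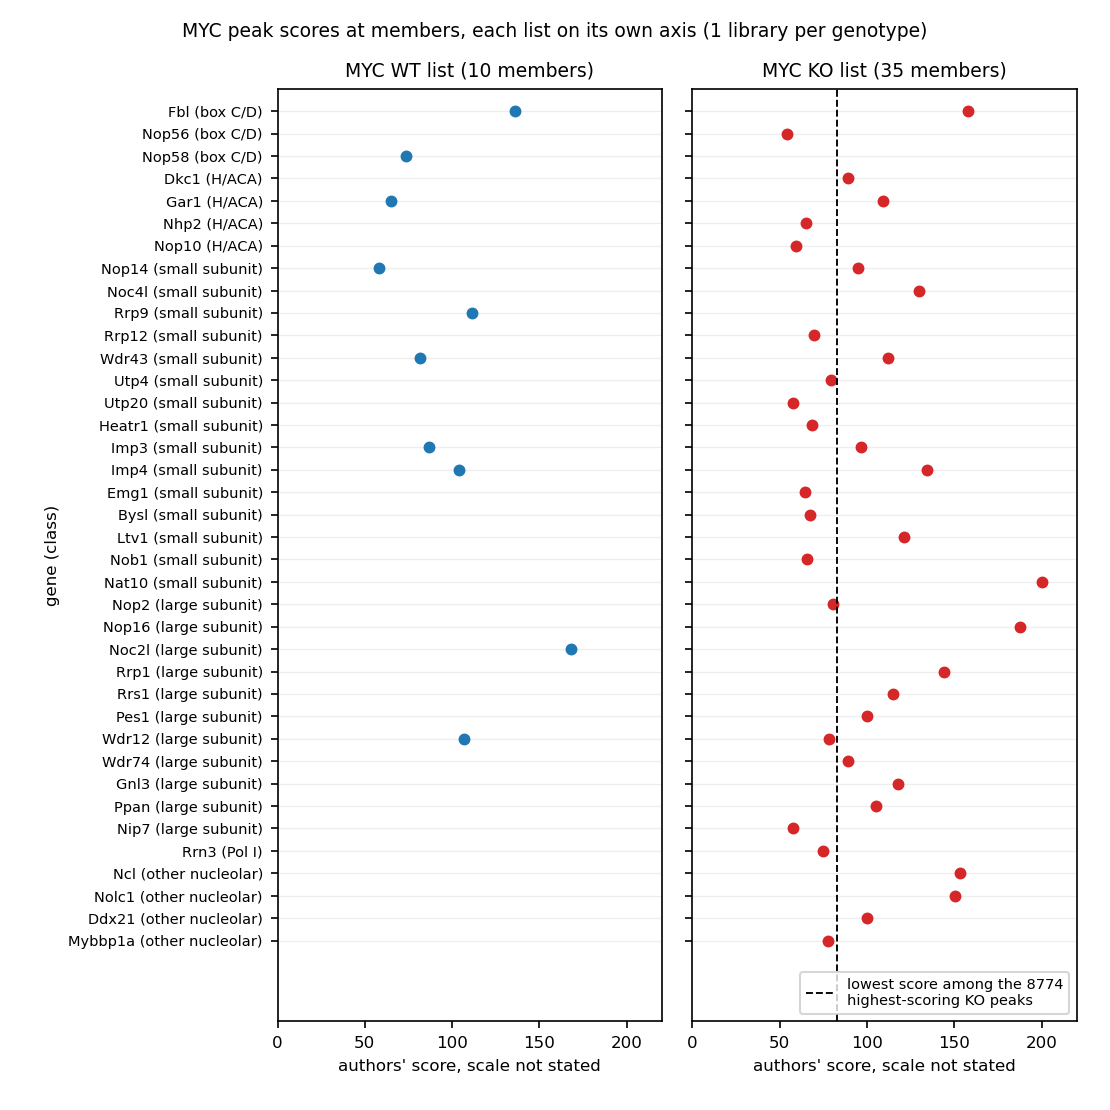
Authors' score of the highest MYC peak (x axis, scale not stated) at the 38 members with a MYC peak (y axis, by class), in WT (left panel) and KO (right panel); scores are not comparable between panels, and the dashed line marks the lowest score, 82.92, among the 8774 highest-scoring KO peaks. The 28 genes with a point only in the right panel are KO only, 14 of them right of the dashed line, and those with one only in the left panel are Nop58, Rrp9 and Noc2l.

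Among the 18 small subunit genes, MYC lay at 5 in WT (10.3% of all genes) and 14 in KO (22.3%). MYC was in KO only at 10 (14.4%), in WT only at 1 (2.35%) and in neither at 3 (75.3%). Nat10 encodes the enzyme that acetylates the small subunit RNA (ID 98956, chr2:103721258-103762954). MYC at Nat10 scored 200.13 in KO, H3K27ac scored 73.53 and 376.49, and H3K4me3 scored 548.95 and 781.67. Its KO-only call depends on the window: a WT MYC peak (69.56) overlapped the KO peak and lay 1031 bp inside the gene, at the annotated start in the promoter table, so Nat10 counts as shared when starts are used. ATAC-seq behaved alike, with 1040.51 in WT 2 and 609.13 in KO MycHet 1 inside the window and peaks of 140.14 (WT 1), 142.31 (KO 1), 992.96 (KO 2) and 985.05 (KO MycHet 2) between 1027 and 1362 bp from the end. Nat10 was therefore open at its start in all 6 libraries.

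Imp4, Noc4l, Ltv1 and Wdr43 followed Nat10 in KO MYC score. Imp4, a protein that pairs the U3 snoRNA with the precursor (ID 27993, chr1:34439829-34445747), had MYC of 104.17 and 134.08, H3K27ac in KO only (106.48) and H3K4me3 of 394.37 and 456.28. ATAC-seq at Imp4 scored 301.57, 1314.63, 269.18, 1287.43, 843.21 and 937.28. Imp4 had a peak in 11 of 12 libraries, and the printed E-box lies inside both its WT and its KO MYC peak. Wdr43, a processome subunit (ID 72515, chr17:71616178-71659031), had MYC of 81.83 and 112.05, H3K27ac in KO only (287.95) and H3K4me3 of 613.68 and 448.12. Open chromatin at Wdr43 scored 173.62, 975.54, 181.85, 795.85, 714.65 and 819.58. The WT and KO MYC peaks of Wdr43 did not overlap: the WT peak was centred 247 bp before the start and the KO peak 1021 bp after it.

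Noc4l and Ltv1 had MYC in KO only. Noc4l, the nucleolar partner of Nop14 (ID 100608, chr5:110648419-110653382), had MYC of 129.56 in KO, H3K27ac in KO only (436.77) and H3K4me3 of 619.04 and 738.93. ATAC-seq at Noc4l was absent in WT 1 and KO 1 and scored 799.31 (WT 2), 653.06 (KO 2), 473.94 and 446.46 (KO MycHet). Its KO MYC peak also lay at an end of Ddx51, a helicase gene of the large subunit pathway. Ltv1, which works in late small subunit maturation (ID 353258, chr10:13178597-13193137), had MYC of 121.3 in KO, H3K27ac of 167.04 and 678.69, and H3K4me3 of 472.5 and 495.81. The ATAC-seq scores of Ltv1 were 223.14, 1159.76, 192.44, 1019.75, 883.05 and 909.44, so every library listed it as open. Rrp9, a U3 snoRNP protein (ID 27966, chr9:106477309-106485415), was the WT-only gene of this class. MYC at Rrp9 scored 111.55 in WT, H3K27ac was absent in both genotypes and H3K4me3 scored 328.14 and 309.02. It was open in all 6 libraries, at 159.82, 821.34, 220.24, 787.15, 609.24 and 773.75, and its WT peak also lay at an end of Parp3.

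The other small subunit genes had lower KO MYC scores or none. Nop14 and Imp3, both processome proteins, had MYC in both genotypes, at 57.99 and 94.9 for Nop14 and at 86.79 and 96.24 for Imp3. Rrp12, Utp4, Utp20, Heatr1, Emg1, Bysl and Nob1 had it in KO only, with scores from 57.69 (Utp20) to 79.48 (Utp4), all below 82.92. Wdr75, Utp15 and Tsr1 had no MYC peak. With equal numbers of peaks, 7 of 18 genes had MYC in KO (11.4% of all genes) and 3 were KO only (5.67%), namely Nat10, Noc4l and Ltv1.

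Among the 16 large subunit genes, MYC lay at 2 in WT (10.3% of all genes) and 10 in KO (22.3%). MYC was in KO only at 9 (14.4%), in WT only at 1 (2.35%) and in neither at 5 (75.3%). With equal numbers of peaks 7 genes had MYC in KO (11.4% of all genes), all of them KO only (5.67%). Differences between the classes rest on few genes and were not tested. Nop16 (ID 28126, chr13:54584191-54590097), a nucleolar protein of early large subunit particles, had MYC of 187.67 in KO, H3K27ac of 53.31 and 491.08, and H3K4me3 of 678.67 and 584.22. ATAC-seq at Nop16 scored 179.3, 901.76, 165.21, 661.3, 694.81 and 715.31. The Nop16 peak also lay at an end of Higd2a. Rrp1 (ID 18114, chr10:78400362-78413043), which acts in large subunit RNA processing, had MYC of 144.27 in KO, H3K27ac of 105.07 and 400.27, and H3K4me3 of 671.8 and 738.25. Open chromatin at Rrp1 scored 112.76, 916.99, 109.18, 928.39, 571.7 and 625.16. Both genes had every mark except MYC in both genotypes.

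Gnl3, Rrs1 and Ppan followed. Gnl3 encodes nucleostemin, a nucleolar GTPase (ID 30877, chr14:31012433-31019131). It had MYC of 117.56 in KO, H3K27ac in KO only (237.08) and H3K4me3 of 508.34 and 341.06, with ATAC-seq of 154.49, 733.07, 76.88, 933.12, 624.32 and 668.48. Rrs1 (ID 59014, chr1:9545408-9547455), which brings the 5S particle into the large subunit, had MYC of 114.74 in KO, H3K27ac of 78.95 and 148.48, and H3K4me3 of 541.61 and 655.78. ATAC-seq at Rrs1 scored 308.19, 1183.21, 319.84, 1100.03, 768.41 and 884.98. Ppan (ID 235036, chr9:20888175-20892179), a large subunit assembly factor, had MYC of 105.24 in KO, H3K27ac of 188.74 and 731.01, and H3K4me3 of 765.13 and 658.79. ATAC-seq at Ppan scored 67.42, 917.91, 101.31, 708.81, 530.41 and 577.61. Ppan had the highest H3K27ac score of all members in each genotype.

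Noc2l, which travels with early large subunit particles and is also known as an inhibitor of histone acetylation (ID 57741, chr4:156234655-156247616), was the WT-only gene of the class. Its MYC peak scored 167.9 in WT, the highest of the 10 WT scores, and also lay at an end of Klhl17. H3K27ac was absent from the window in both genotypes, although 2 KO peaks (the higher at 56.19) lay inside the gene, the nearest 1359 bp from its end and within 1 kb of an annotated start. H3K4me3 scored 325.37 and 468.1. ATAC-seq scored 879.54 (WT 2), 749.43 (KO 2), 426.46 and 668.58 (KO MycHet), while the peaks of WT 1 (125.8) and KO 1 (138.68) lay 1021 and 1105 bp inside the gene, just outside the window. As with Nat10 the call depends on the window, since a KO MYC peak (61.05) lay 2030 bp inside the gene, within 1 kb of an annotated start. Wdr12, a subunit of the Pes1 and Bop1 complex, had MYC in both genotypes (106.83 and 78.0). Pes1 (99.95), Wdr74 (89.31), Nop2 (80.19) and Nip7 (57.8) had it in KO only. Noc3l, Rrp1b, Rrp15, Bop1 and Ebna1bp2 had no MYC peak. The Pes1, Bop1 and Wdr12 proteins form 1 complex, and their genes had MYC at the far end in KO only, in neither genotype, and in both genotypes.

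Among the 4 RNA polymerase I genes MYC lay at 1 in KO and 0 in WT, a number too small to set apart from the 22.3% and 10.3% of all genes. Rrn3 encodes the factor that makes the polymerase competent to initiate (ID 106298, chr16:13780699-13814841). MYC at Rrn3 scored 74.91 in KO and was absent in WT, H3K27ac was in KO only (318.6), and H3K4me3 scored 473.41 and 488.36. ATAC-seq at Rrn3 scored 159.43, 932.8, 105.17, 821.85, 482.23 and 540.93. Taf1b (ID 21340, chr12:24498581-24558571), a subunit of the selectivity factor, had no MYC peak, H3K27ac in KO only (79.09) and H3K4me3 of 310.26 and 371.14. Tcof1 (ID 21453, chr18:60813738-60848983), which encodes treacle, had no MYC peak, H3K27ac in KO only (142.52) and H3K4me3 of 444.52 and 507.42. Both were open in all 6 libraries, at 88.36, 762.19, 112.62, 748.9, 425.93 and 519.97 for Taf1b. For Tcof1 the scores were 169.39, 791.78, 142.12, 915.43, 540.23 and 674.69. None of the 4 genes had MYC in KO with equal numbers of peaks.

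Ubtf, which encodes the upstream binding factor of ribosomal DNA (ID 21429, chr11:102304560-102323649), had no peak at its outer ends in any of the 12 libraries. Its 6 annotated starts in the promoter table lie inside these bounds. Within 1 kb of 1 or more of those starts, H3K4me3 scored 328.69 in WT and 250.46 in KO, and H3K27ac scored 179.85 in KO and had no peak in WT. ATAC-seq there scored 422.75 (WT 2), 288.12 (KO 2), 289.19 and 349.48 (KO MycHet). No MYC peak lay at any of them in either genotype. WT 1 and KO 1 had no ATAC-seq peak at any of the 6 starts. Ubtf was therefore marked by H3K4me3 at its promoter in both genotypes and open there in 4 of 6 ATAC-seq libraries, which the gene-end rule does not count.

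Of the other nucleolar genes, 4 of 5 had MYC in KO (22.3% of all genes) and none in WT (10.3%). Ncl encodes nucleolin, an abundant RNA-binding protein of the nucleolus (ID 17975, chr1:86344719-86359455). MYC at Ncl scored 153.18 in KO, H3K27ac 62.0 and 304.08, and H3K4me3 328.86 and 131.76. Open chromatin at Ncl scored 225.31, 1827.26, 259.99, 1646.25, 1132.91 and 1500.72. The KO MYC peak of Ncl was the widest of the members at 2349 bp. Nolc1, a chaperone of snoRNPs (ID 70769, chr19:46075847-46085543), had MYC of 150.19 in KO, H3K27ac of 115.03 and 480.34, and the highest H3K4me3 of the members, 1101.67 and 1138.54. ATAC-seq at Nolc1 scored 81.0, 711.61, 72.79, 593.37, 446.38 and 526.79.

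Ddx21, an RNA helicase (ID 56200, chr10:62580247-62602298), had MYC of 100.21 in KO, H3K27ac of 133.42 and 454.85, and H3K4me3 of 535.75 and 671.37. It was not listed as open in WT 1 or KO 1 and scored 626.84 (WT 2), 570.55 (KO 2), 414.84 and 463.9 (KO MycHet). Mybbp1a, a Myb-binding protein of the nucleolus (ID 18432, chr11:72441327-72451770), had MYC of 77.59 in KO, H3K27ac in KO only (270.24) and H3K4me3 of 636.8 and 810.45. ATAC-seq at Mybbp1a was absent in KO 1 and scored 56.03 (WT 1), 463.68 (WT 2), 422.86 (KO 2), 217.83 and 238.31 (KO MycHet). Npm1, which encodes nucleophosmin (ID 18148, chr11:33152498-33164142), was the exception, with no MYC peak in either genotype. Its H3K27ac was in KO only (237.29) and its H3K4me3 scored 738.12 and 156.19. Npm1 was open in all 6 libraries, at 179.96, 1024.22, 171.59, 1058.16, 749.45 and 855.49, and a WT MYC peak (62.89) lay inside the gene 1846 bp from its end.

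H3K27ac, a mark of active promoters and enhancers, was listed at nearly all of the genes in KO and at fewer in WT. The counts were 21 of 50 in WT (background 14.6%) and 47 of 50 in KO (39.6%). Shared between genotypes were 21 genes (13.8%), while 26 were KO only (25.8%), 0 were WT only (0.767%) and 3, namely Rrp9, Noc2l and Ubtf, were in neither (59.7%). Among genes with H3K4me3 in both genotypes, 26.6% had H3K27ac in WT, 72.5% in KO and 46.7% in KO only, so with all peaks the KO-only share of the members (52.0%) was near that background. With equal numbers of peaks the counts were 46 in KO (31.2% of all genes, 58.4% of those with H3K4me3) and 25 in KO only (18.4% and 34.2%), so the members' KO-only share of 50.0% was then above it. H3K4me3, a mark of active promoters, lay at 49 members of the WT list (52.9%) and 48 of the KO list (54.3%). These were the same 48 (51.4%) plus Nop10 in WT only (1 gene, 1.52%), with 0 in KO only (2.94%) and Ubtf in neither (44.2%). Scores of the members ran from 53.31 to 188.74 (median 79.0) for H3K27ac in WT and from 79.09 to 731.01 (median 270.0) in KO. For H3K4me3 they ran from 110.3 to 1101.67 (median 542.0) in WT and from 131.76 to 1138.54 (median 591.0) in KO. In the KO list the H3K27ac peaks of the members stood at a median percentile of 85.7. Peaks in both genotypes were wider in KO at 7 of 7 members for MYC, 21 of 21 for H3K27ac and 47 of 48 for H3K4me3. Over all genes with a peak in both, 88.9%, 99.9% and 91.9% were wider in KO, so the members did as most genes did. The median width ratio of KO to WT was 2.0, 3.88 and 1.28 at the members and 1.59, 4.08 and 1.22 over all genes.

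With all peaks, MYC in KO only was found at most members that had H3K27ac in both genotypes and at a minority of the rest. Of the 21 members with H3K27ac in both genotypes, 19 (90.5%) had MYC in KO only, among them Nat10, Nop16, Pes1, Ncl and Nolc1. The same share was 33.5% of the 2865 genes with H3K27ac and H3K4me3 in both genotypes. It was 7 of 35 (20.0%) in a wider list of ribosome biogenesis genes, 12 of 47 (25.5%) among cytosolic ribosomal protein genes and 7 of 29 (24.1%) among mitochondrial ones. With equal numbers of MYC peaks the share of the members was 11 of 21 (52.4%), since Nop56, Nhp2, Rrp12, Utp4, Emg1, Bysl, Nob1 and Nop2 lost the call. The other shares were then 16.2% of the genes with H3K27ac and H3K4me3 in both genotypes, 4 of 35 in the wider list, 5 of 47 among cytosolic and 1 of 29 among mitochondrial ribosomal protein genes. Among the 26 members with H3K27ac in KO only, 9 (34.6%) had MYC in KO only, against 28.7% of such genes with H3K4me3, and 3 (11.5%) against 10.7% with equal numbers. The 12 members with MYC in neither genotype were Ubtf and 11 genes with H3K27ac in KO only. The 11 were Wdr75, Utp15, Tsr1, Noc3l, Rrp1b, Rrp15, Bop1, Ebna1bp2, Taf1b, Tcof1 and Npm1. Rrp9 and Noc2l, with MYC in WT only, had no H3K27ac at their ends in either genotype, but by annotated starts Noc2l had both MYC (61.05) and H3K27ac (56.19) in KO. By those starts Nob1, Nop2 and Wdr74 had no WT H3K27ac peak, Pes1 had no KO MYC peak and Nat10 had MYC in both genotypes. The 19 members were thus counted by gene ends, and not all of them hold at annotated starts. This cross of MYC and H3K27ac was chosen after the values were seen, and both marks come from 1 library per genotype.

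Open chromatin was listed at most members in every genotype, at shares near those of other active genes. An ATAC-seq peak lay at 40 and 49 of 50 genes in WT 1 and WT 2 (44.7% and 66.1% of all genes), at 39 and 48 in KO 1 and KO 2 (44.7% and 65.7%), and at 49 and 48 in the KO MycHet libraries (62.0% and 62.3%). Both libraries of a genotype had one at 40 genes in WT (44.6% of all genes and 80.3% of those with H3K4me3 in both genotypes), 39 in KO (44.6% and 79.6%) and 48 in KO MycHet (59.9% and 96.6%). Across the members the ATAC-seq scores had medians of 160.0 (WT 1), 888.0 (WT 2), 142.0 (KO 1), 757.0 (KO 2), 540.0 (KO MycHet 1) and 614.0 (KO MycHet 2). These medians are not comparable between libraries. All 6 libraries had a peak at 37 members, against 73.5% of the genes with H3K4me3. No member was open in both KO and neither WT library (0.0277%), or in both WT and neither KO library (0.0231%). WT 1 and KO 1 share an extraction text that names WT and KO mice, and the other 4 share one that names all 3 groups. Within the first pair, Bysl and Tsr1 were listed in KO 1 and not WT 1 (2 genes, background 4.63%), and Bop1, Pes1 and Mybbp1a in WT 1 and not KO 1 (3 genes, 4.7%). Between WT 2 and KO 2, 0 were in KO 2 and not WT 2 (1.99%), and Nat10, with its KO 2 peak 1027 bp inside the gene, was in WT 2 and not KO 2 (1 gene, 2.39%). With 2 libraries in each group an exact two-sided permutation test cannot give a p below 0.333, so no gene could pass it.

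**Figure D4:**
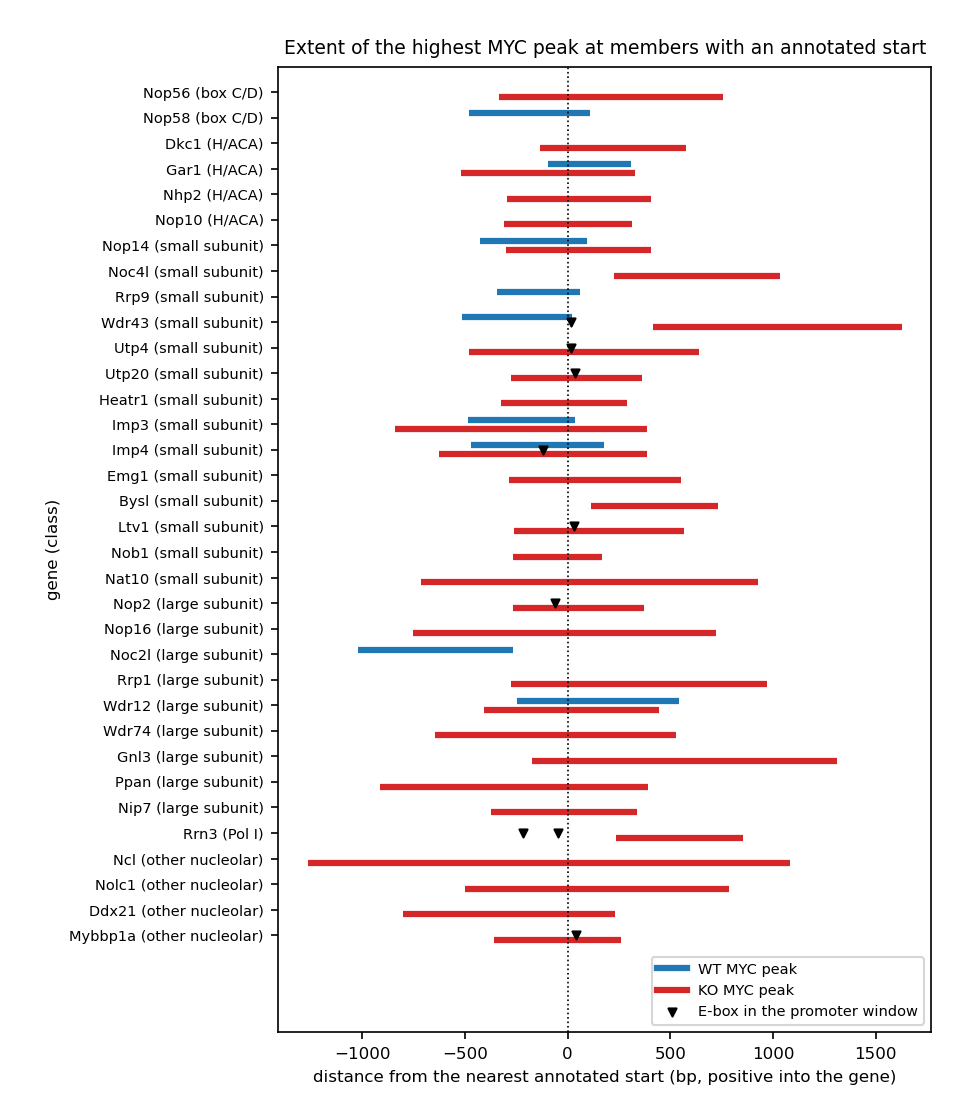
Extent of the highest MYC peak at the members with an annotated start (y axis, by class; Pes1, whose KO peak lies 15541 bp into the gene, is not drawn) as distance from that start (x axis, bp, positive into the gene) in WT (blue) and KO (red); triangles mark the first base of an E-box in the 300-base promoter window. Most bars cross the start, the WT and KO peaks of Wdr43 lie apart, and the Rrn3 peak begins 237 bp downstream of the start and of both its E-boxes.

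The E-box lay in the promoter window of 10 of 44 members with a RefSeq promoter (22.7%, interval 11.5 to 37.8). It lay in that of 9.02% of 17274 protein-coding genes and of 11.7% of those with H3K4me3 in both genotypes. Of the 21045 promoter sequences of all genes, 7.91% held it. Most of these E-boxes lay downstream of the start, in the sequences of Utp4, Wdr43, Tsr1, Ltv1, Utp20, Pes1 and Mybbp1a printed above. In the 50 bases from the start on, 7 of 44 members (15.9%) had an E-box, against 1.34% of all genes and 1.98% of those with H3K4me3. In the 250 bases before it, 3 of 44 (6.82%) had one, against 7.7% of all genes. The count for the 50 bases from the start on was added after the positions were seen.

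**Figure D5:**
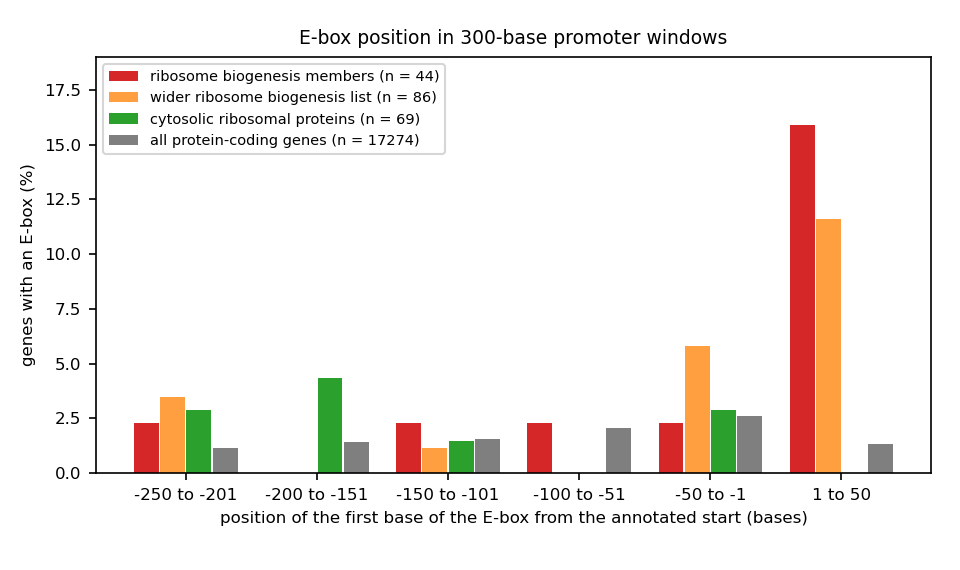
Share of genes with an E-box (y axis, percent) by the position of its first base from the annotated start (x axis, bins of 50 bases) for 4 gene lists. In the bin from base 1 to 50 the members reach 15.9% and the wider list 11.6%, with 1.34% of all genes and 0 of 69 cytosolic ribosomal protein genes, while the highest bin before the start is 5.81%, in the wider list.

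By class, the downstream E-box was found at 5 of 17 small subunit genes and 1 of 14 large subunit genes, at 0 of 4 H/ACA and 0 of 2 box C/D genes, and at 1 of 4 other nucleolar genes. The wider list, which shares no gene with the members, had it at 10 of 86 genes (11.6%), with first bases from position 16 to 43. That list too was chosen with earlier results of these data known. The 10 genes were Ccdc86, Mdn1, Nle1, Pno1, Rpf2, Sdad1, Tma16, Tsr2, Utp25 and Xrn2, of which 7 had MYC in KO and 1 in WT. These are too few to set apart from the share of the whole wider list with MYC in KO, given below. Whether their E-boxes lie inside the MYC peaks was not examined. Cytosolic and mitochondrial ribosomal protein genes had it at 0 of 69 each.

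Motif and MYC peak overlapped in part. Of the 11 E-boxes in 10 genes, 6 lay inside a KO MYC peak (Imp4, Ltv1, Mybbp1a, Nop2, Utp20 and Utp4) and 1 inside a WT peak (Imp4). At Rrn3 and Wdr43 the KO peak began downstream of the motif, at Pes1 it lay at the far end of the gene, and Tsr1 had no MYC peak. The WT peak of Wdr43 ended within the motif and so covered it in part. Of 32 members with MYC in KO and a promoter entry, 9 (28.1%) had an E-box, against 12.6% of genes with H3K4me3 and MYC in KO. Of 9 members with MYC in neither genotype, 1 (11.1%, interval 0.281 to 48.2) had it, against 11.1% of genes with H3K4me3 and MYC in neither. Among genes with H3K4me3 in both genotypes, the E-box share thus differed little between those with MYC in KO and those without MYC. The members without MYC are too few to compare. Nat10, Nop16, Rrp1, Ncl and Nolc1, which had the highest KO-only MYC scores, had no E-box in this window, which says nothing of other sequence.

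Many snoRNAs are known to be made from introns of host genes, and the bounds of 8 members hold snoRNA genes in the RefSeq table, whichever strand they lie on. They were Nop56 with 5 snoRNA genes, Nop58 with 4, Wdr43 and Gnl3 with 3, Ppan and Ncl with 2, and Dkc1 and Tsr1 with 1. The share of such members was 16.0%, against 1.72% of all protein-coding genes and 33.3% of cytosolic ribosomal protein genes. MYC lay in KO at 6 of these 8, all but Nop58 and Tsr1, which is near the 70.0% of all members.

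The wider list of 106 further ribosome biogenesis genes had MYC at more genes in KO than in WT with all peaks, and at as many with equal numbers of peaks. MYC lay at 31 genes in WT (29.2% of the list) and 59 in KO (55.7%), with 35 in KO only (33.0%) and 7 in WT only (6.6%). Over all protein-coding genes these 4 shares were 10.3%, 22.3%, 14.4% and 2.35%. With equal numbers of peaks both genotypes had 31, with 16 in KO only and 16 in WT only, where the members had 14 and 4. Over all genes the shares were then 10.3% in WT, 11.4% in KO, 5.67% in KO only and 4.59% in WT only. The difference between the members and this list was not tested. The highest KO MYC scores were at Nol6 (359.52), Ngdn (146.23) and Utp18 (121.93) for the small subunit, and at Ddx54 (273.58), Nmd3 (160.05) and Senp3 (155.36) for the large subunit. For snoRNP assembly they were at Shq1 (212.86), Ruvbl1 (81.34) and Znhit6 (80.15), for the exosome and exonucleases at Exosc5 (202.32), Xrn2 (88.73) and Exosc4 (86.49), and for RNA polymerase I at Taf1c (105.39) and Taf1a (50.18). Cytosolic ribosomal protein genes had MYC at 25 of 90 in WT and 47 in KO, and at 21 in KO with equal numbers. Mitochondrial ribosomal protein genes had it at 18 of 78 and 39, and at 15 with equal numbers. The shares of all genes beside these counts are 10.3%, 22.3% and 11.4%.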

How the data were processed

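Peak lists of 12 libraries were used: ChIP-seq of MYC, H3K27ac and H3K4me3 (a WT and a KO list for each target) and ATAC-seq (2 lists per genotype). The 8 RNA-seq samples of the series were not analysed here. The authors deposited 1 peak list per library with a score per peak, and the lowest score in any list was 50. Nothing in the files or labels states the scale of the score. Per the submitters' processing notes the genome build was mm10 and CASAVA was used, and TopHat and Cufflinks are named for the RNA-seq samples. For the aligner, the peak caller and the control used in calling, the record is: not given in the sources used here.

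Gene bounds came from the RefSeq gene table of GRCm38.p6, and promoters and strand from its promoter table. A peak counted at a gene if it overlapped by at least 1 bp the 1 kb on both sides of either outer end of the gene. The MYC and H3K27ac counts were repeated with the KO list shortened to the WT length by score. Shares carry exact Clopper-Pearson 95% intervals, which cover counting error only. Peak lists hold no read counts, so depth and its precision are unknown. Overlap counting was tested on simulated data and checked against bedtools 2.31.1. Other tools were Python 3.11.15, numpy 2.4.6, pandas 2.3.3 and scipy 1.17.1.

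The members, classes, wider list and marker lists were chosen with earlier results of these data known. Genes were named by a rule: every box C/D, H/ACA and RNA polymerase I member, Ncl and Npm1, the 5 highest KO MYC scores of each other class, every WT-only gene, and the 3 highest KO MYC scores of each wider sublist. Others are named where counts are small, after their values were seen. Ribosomal protein genes were taken by symbol, without the Rps6k kinases and Rps19bp1. Alternatives were windows of 500 bp and 2.5 kb, the peak centre, annotated starts only, no overlap with a peak of the other genotype, scores of at least 100, equal numbers of peaks, each ATAC-seq library left out, and promoter bases on 1 side of the start. Added after seeing the data were counts of peaks at no other gene, the 50 promoter bases from the start on, and the cross of MYC with H3K27ac at equal numbers of MYC peaks.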

Additional observations from a re-analysis of the deposited data

How the results depend on the processing

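Of 120 alternatives tried for 17 counts, 106 stayed within 1.5 times the reported count. Some of them could not differ, since shortening to equal numbers left the WT ChIP-seq lists whole (8774 of 8774 peaks for MYC). The MYC counts in KO and in KO only moved by more with equal numbers and with scores of at least 100. With equal numbers of peaks MYC lay at 20 members in KO (11.4% of all genes) and at 14 in KO only (5.67%). With scores of at least 100 it lay at 5 in WT (2.8%), 15 in KO (8.18%) and 13 in KO only (6.17%). With peaks at no other gene, a choice made after seeing the data, it lay at 4 in WT (6.33%) and 24 in KO (14.5%). By that choice 21 members were KO only (10.1%) and 1 was WT only (1.91%). H3K27ac lay at 7 members in WT (4.04%) with scores of at least 100, and at 1 in WT only (1.69%) by the peak centre. H3K4me3 lay in KO only at 2 members with the 500 bp window (3.0%) and at 1 by the peak centre (3.31%). It lay in WT only at 4 by the peak centre (3.91%). ATAC-seq peaks in all 6 libraries fell on 24 members (25.6%) with scores of at least 100. The E-box lay in 3 member promoters (7.7% of all genes) when the bases before the start alone were searched. Leaving out each ATAC-seq library gave 40 to 49 members for WT, 39 to 48 for KO, 48 to 49 for KO MycHet and 37 to 40 for all libraries. The cause of these shifts was not tested. With annotated starts in place of gene ends, 10 members had MYC in WT and 32 in KO of the 44 with a promoter entry. Over all genes with such an entry the shares were 10.3% and 22.5%. No paired analysis was possible because the results are counts of genes from 1 or 2 libraries per genotype and come from no test. Depth is unknown, so an absent peak is a site that was not listed.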
